A study of Homo sapiens with 5 samples.

Results

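The annexins ANXA1, ANXA2, ANXA3, ANXA4, ANXA5, ANXA6, ANXA7 and ANXA11 and the S100 genes S100A10 and S100A11 were followed in HEK293T cells with and without ascorbic acid. They were chosen by gene symbol, as annexins and the S100 genes whose proteins pair with annexins, and are 10 of the 28278 gene symbols in the count table. The choice was made with the fold changes of this comparison known, among them the increases of ANXA1 and S100A11. The values below that compare the groups are therefore a description of these genes and not a test of them. RNA-seq was made from HEK293T, an established human embryonic kidney line, as 3 control libraries of untreated wild-type cells and 2 libraries after ascorbic acid (vitamin C). Ascorbic acid was added after 24 h of culture for a further 24 or 36 h, with fresh medium every 6 h. The labels give neither the dose nor which of both times applies here. Whether the libraries of a group were separate cultures is not stated, so p-values and standard errors cover only the spread between these libraries, and that spread may be technical.

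Annexins are cytosolic proteins whose conserved core binds acidic membrane phospholipids when calcium rises, while their N-terminal ends differ and carry the contacts to other proteins. S100 proteins are small EF-hand calcium sensors that work as dimers. S100A10 binds the N-terminal end of ANXA2, and S100A11 that of ANXA1, so that an S100 dimer can bridge a pair of annexins and the membranes they hold. These complexes are known for membrane repair, vesicle traffic and, for ANXA2 with S100A10, plasminogen activation at the cell surface.

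The RefSeq promoter windows (GRCh38.p14, 250 bases before to 50 after a RefSeq start) of 5 of these genes are printed 5′ to 3′ on the gene's strand. They are shown because S100A11, ANXA1, ANXA2 and ANXA3 had the 4 largest fold changes and ANXA5 the highest level. Capitals mark the motifs found among 7 that were searched on both strands.
S100A11: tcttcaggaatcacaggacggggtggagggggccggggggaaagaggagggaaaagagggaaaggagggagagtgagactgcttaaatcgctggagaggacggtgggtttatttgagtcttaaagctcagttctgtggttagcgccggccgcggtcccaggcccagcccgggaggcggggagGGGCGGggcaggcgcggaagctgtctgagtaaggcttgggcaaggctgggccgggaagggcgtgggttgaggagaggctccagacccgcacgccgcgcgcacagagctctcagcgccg
ANXA1: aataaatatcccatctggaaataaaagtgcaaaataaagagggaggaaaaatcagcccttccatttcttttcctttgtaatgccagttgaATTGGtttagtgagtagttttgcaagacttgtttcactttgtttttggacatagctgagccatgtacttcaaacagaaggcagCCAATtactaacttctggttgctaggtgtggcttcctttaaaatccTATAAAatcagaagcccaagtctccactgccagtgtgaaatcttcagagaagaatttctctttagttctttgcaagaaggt
ANXA2: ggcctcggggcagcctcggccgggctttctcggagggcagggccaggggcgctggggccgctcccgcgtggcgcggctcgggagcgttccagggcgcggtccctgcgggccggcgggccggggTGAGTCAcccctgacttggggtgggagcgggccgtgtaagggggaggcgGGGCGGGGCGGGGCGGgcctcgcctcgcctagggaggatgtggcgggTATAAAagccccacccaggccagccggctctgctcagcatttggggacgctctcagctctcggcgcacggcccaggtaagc
ANXA3: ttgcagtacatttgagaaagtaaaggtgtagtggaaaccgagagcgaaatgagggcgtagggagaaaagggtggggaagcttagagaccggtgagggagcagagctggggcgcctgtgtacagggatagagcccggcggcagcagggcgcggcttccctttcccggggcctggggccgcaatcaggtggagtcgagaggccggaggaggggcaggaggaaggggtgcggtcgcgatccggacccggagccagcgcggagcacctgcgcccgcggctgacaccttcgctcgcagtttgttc
ANXA5: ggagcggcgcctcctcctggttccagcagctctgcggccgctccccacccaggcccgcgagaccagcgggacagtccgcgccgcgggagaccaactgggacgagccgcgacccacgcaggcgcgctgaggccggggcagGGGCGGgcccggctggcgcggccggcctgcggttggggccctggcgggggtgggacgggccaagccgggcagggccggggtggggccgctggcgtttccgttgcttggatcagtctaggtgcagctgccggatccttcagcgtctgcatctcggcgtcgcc
These windows lie at chr1:152036955-152037254 (minus strand), chr9:73151615-73151914 (plus), chr15:60397937-60398236 (minus), chr4:78551520-78551819 (plus) and chr4:121696931-121697230 (minus). Those of S100A11, ANXA2 and ANXA3 lie within the GENCODE gene intervals given below, which reach farther upstream.

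The windows of ANXA1 and S100A11, the partner genes with similar fold changes, had little in common. The ANXA1 window held no CpG dinucleotide, as did 3.96% of 35116 windows of all genes, and its GC content was 37.7%. It held a TATA box (TATAAA, in 11.5% of all windows) that begins 31 bases before the start, and CCAAT boxes (CCAAT, 34.6%) on either strand. The S100A11 window had a GC content of 65.3%, a CpG observed to expected ratio of 0.781 and a single GC box (GGGCGG, 45.0% of all windows). In ANXA2 a TATA box also began 31 bases before the start, below 3 overlapping GC boxes and an AP-1 motif (TGANTCA, 7.71% of all windows), and the CpG ratio was 0.762. ANXA3 had none of the 7 motifs and a CpG ratio of 0.870, and ANXA5 had a GC box and a ratio of 0.829. Over the 14 windows of the 10 genes the median CpG ratio was 0.745, against 0.579 over all windows. The TEAD motif (GGAATG, 14% of all windows) was in none of the 14. The hypoxia core (ACGTG, 21.4%) was in windows of ANXA4, ANXA6 and S100A10, and the antioxidant response core (TGACNNNGC, 13.3%) in that of ANXA7. A motif match is a description of the letters, not a site.

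Depth ran from 35106664 to 57212071 gene counts per library, and 71.3 to 75.9% of the counts from 1 to 10 were even, which would follow if each read of a pair was counted. Of 7 neural-lineage genes of the line 6 were tested, with NEFM at 17.2 ± 0.338 CPM (SD, n = 3; CPM is the count scaled to a common library total with TMM factors) in controls, and STMN2 had no count in the controls. Of 7 proximal tubule genes 5 were tested, with LRP2 the most abundant at 30.0 CPM in controls, and the transporters SLC34A1 and SLC22A6 had no count in any library. In bulk RNA, more cells with a transcript and more transcript per cell cannot be told apart.

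All 10 genes passed the filter on low counts. In edgeR's quasi-likelihood fit over 15271 genes, 6 of the 10 passed an adjusted p of 0.05 upward (8.53% of all tested genes did) and 0 passed downward (5.76%). Downward, 1 of the 10 (ANXA7) had an unadjusted p under 0.05, and DESeq2 and limma-voom called 0. Those that rose were ANXA1, ANXA2, ANXA3, ANXA4, S100A10 and S100A11, and ANXA5, ANXA6, ANXA7 and ANXA11 did not pass. The median log2 fold change of the 10 was 0.26, beside 0.00 (0.00297) over all tested genes. The control and treated libraries did not overlap for 7 of the 10, and for 43.1% of all tested genes. Since the fold changes were known when the genes were chosen, nothing is read from these counts.

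**Figure D1:**
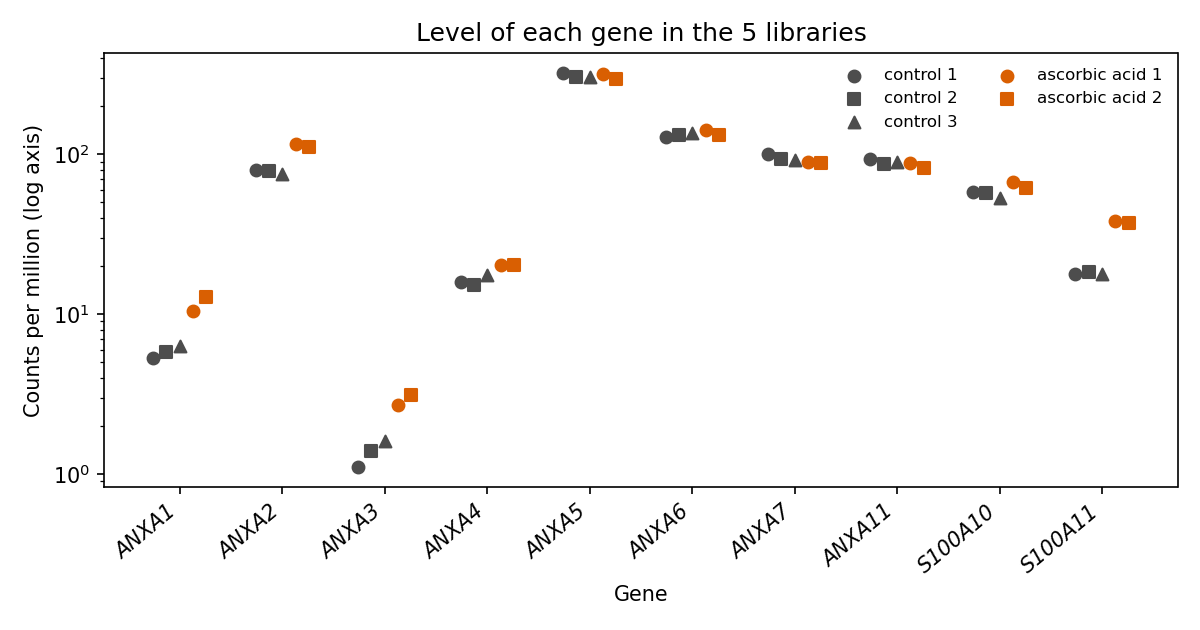
Level of each gene in CPM (log axis) in the 3 control libraries (grey) and the 2 ascorbic acid libraries (orange), 1 point per library. Both treated libraries lie above the 3 controls for ANXA1, ANXA2, ANXA3, ANXA4, S100A10 and S100A11, both lie below them for ANXA7, and the groups overlap for ANXA5, ANXA6 and ANXA11.

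S100A11 (chromosome 1, 152032506 to 152047907, GRCh38), the calcium-dependent partner of ANXA1, stood at 17.7, 18.3 and 17.9 CPM in controls 1 to 3 and at 38.4 and 37.2 CPM in treated 1 and 2. The libraries of each group lay close together, and the lower treated library was 2.04-fold above the highest control. The group means were 18.0 ± 0.272 CPM (SD, n = 3) and 37.8 ± 0.820 CPM (SD, n = 2), and the fitted log2 fold change was 1.07 ± 0.07 (SE). Leaving out any 1 library gave 1.05 to 1.09.

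ANXA1 (chromosome 9, 73151757 to 73170393), a mediator of glucocorticoid action that signals through formyl peptide receptors, had 5.29, 5.79 and 6.33 CPM in the controls and 10.5 and 12.8 CPM with ascorbic acid. Its groups were apart, but its libraries were more scattered than those of S100A11, with a coefficient of variation of 8.89% among controls against 1.52%. The log2 fold change was 1.01 ± 0.11, and it ranged from 0.86 to 1.15 with 1 library left out.

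The ratio of S100A11 to ANXA1 can be followed within each library, where differences in scaling cancel. Relative to the control mean it was 1.08, 1.01 and 0.910 in the controls and 1.17 and 0.935 with ascorbic acid. The groups overlapped, and the treated mean was 1.05 of the control mean.

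ANXA2 (chromosome 15, 60347134 to 60402883), which organises membranes and binds tissue plasminogen activator, had 79.6, 78.7 and 75.0 CPM in the controls and 116.9 and 111.6 CPM with ascorbic acid. The lower treated library was 1.4-fold above the highest control, and the log2 fold change was 0.56 ± 0.05. S100A10 (chromosome 1, 151982915 to 151994390), the ANXA2 partner that binds without calcium, had 58.2, 57.1 and 53.7 CPM in the controls and 67.4 and 61.9 CPM with ascorbic acid. Its groups were apart by a smaller margin, 1.06-fold between the nearest libraries, with a log2 fold change of 0.20 ± 0.06. Its call ended in a test against a 1.2-fold change and with the replicate number as a block (0.17). The S100A10 call ended without control replicate 3 (0.17) and without ascorbic acid replicate 1 (0.13).

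In contrast to the other pair, the ratio of S100A10 to ANXA2 was lower with ascorbic acid. Relative to the control mean it was 1.01, 1 and 0.988 in the controls and 0.796 and 0.765 with ascorbic acid, so that the groups did not overlap. With 3 libraries against 2, no exact permutation test of a single ratio can pass 0.05, and the ratio is given without a test.

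**Figure D2:**
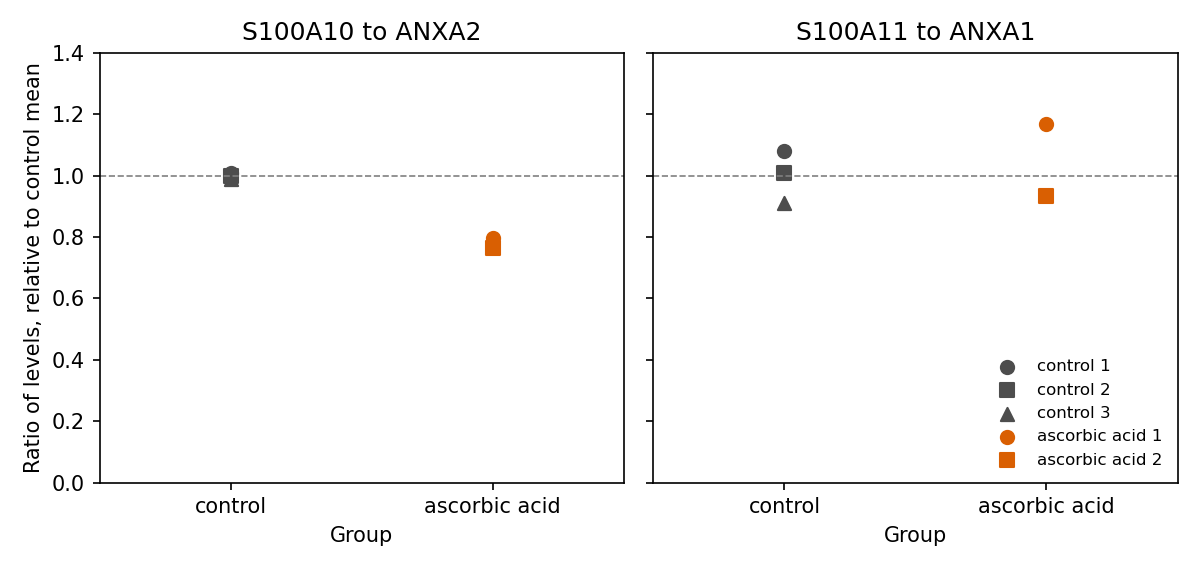
Ratio of S100A10 to ANXA2 (left) and of S100A11 to ANXA1 (right) in each library, divided by the mean of the 3 controls. Points are single libraries, and the dashed line is the control mean. The treated libraries lie at 0.796 and 0.765 on the left and at 1.17 and 0.935 on the right.

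Of the annexins without an S100 partner among these genes, ANXA3 and ANXA4 rose. ANXA3 (chromosome 4, 78551519 to 78610451), an annexin known as an inhibitor of phospholipase A2 in vitro, was the lowest of the 10 genes, with 1.10 to 1.62 CPM in the controls (control 1 lowest, control 3 highest) and 2.70 and 3.13 CPM in treated 1 and 2. These values rest on 53 to 62 counts in the controls and 131 and 134 with ascorbic acid. The groups were apart, with the fold change least well determined of the 10, at 1.11 ± 0.21 on the log2 scale. ANXA4 (chromosome 2, 69644425 to 69827100), an annexin abundant in secretory epithelia, had 15.9, 15.3 and 17.7 CPM in the controls and 20.4 CPM in both treated libraries. Its log2 fold change was 0.32 ± 0.08, and the call ended in a test against a 1.2-fold change.

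The 4 remaining annexins, which include the most abundant, did not pass. ANXA5 (chromosome 4, 121667955 to 121697113), the phosphatidylserine-binding protein used to stain apoptotic cells, had 324, 304 and 304 CPM in the controls and 319.9 and 296 CPM with ascorbic acid. The groups overlapped, and the log2 fold change was -0.01 ± 0.05, with a sign that turned in 6 of 17 alternative fits. ANXA6 (chromosome 5, 151100712 to 151157882), which has an extended core and acts in endosome and cholesterol traffic, ran from 129 to 135 CPM in the controls with 142 and 133 CPM in the treated libraries. Its log2 fold change was 0.06 ± 0.05.

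ANXA7 and ANXA11 are the annexins with long N-terminal ends, ANXA7 known for membrane fusion of secretory granules and ANXA11 for tethering RNA granules to lysosomes. For ANXA7 (chromosome 10, 73375101 to 73414076) both treated libraries, at 89.0 and 88.4 CPM, lay below the controls at 100.1, 93.7 and 92.2 CPM, with a log2 fold change of -0.11 ± 0.05 that did not pass. ANXA11 (chromosome 10, 80150889 to 80205572) had 93.6, 87.2 and 89.4 CPM in the controls and 88.6 and 81.9 CPM with ascorbic acid. These overlapped, with a log2 fold change of -0.08 ± 0.05. ANXA7 is the only one of the 10 whose exons overlap another annotated gene, an antisense transcript over 3.67% of its exon length.

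**Figure D3:**
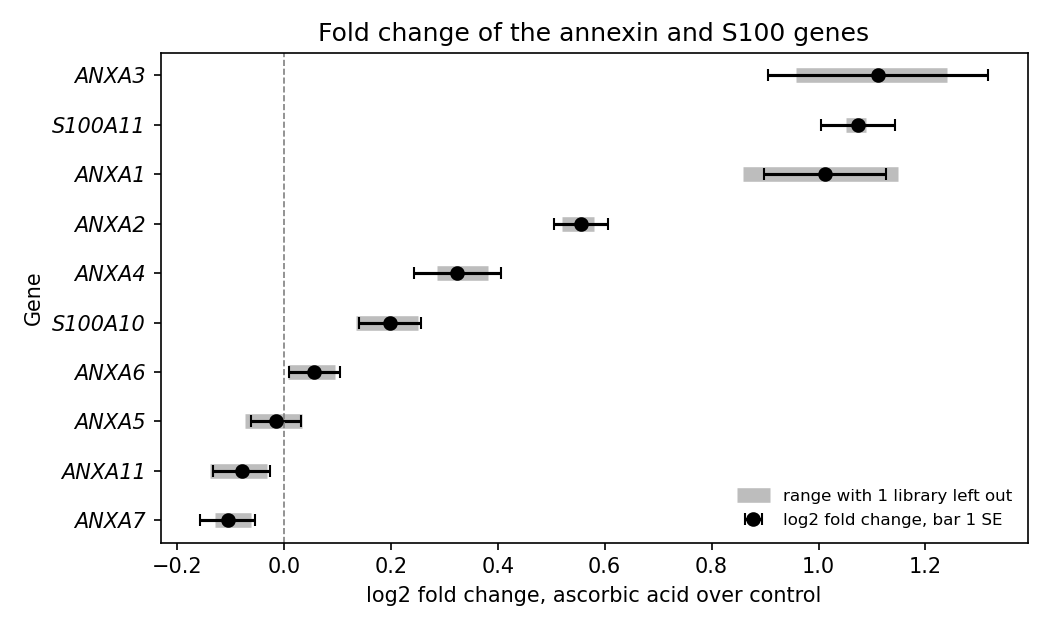
Fitted log2 fold change (ascorbic acid over control) of each gene, with a bar of 1 SE and, in grey, the range of values when 1 of the 5 libraries is left out. The values run from -0.11 for ANXA7 to 1.11 for ANXA3, and the grey range crosses 0 for ANXA5 alone.

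The summed level of the 8 annexins is set mostly by ANXA5, ANXA6, ANXA7, ANXA11 and ANXA2. The sum was 718 to 749 CPM in the controls and 747 and 790 CPM with ascorbic acid, which overlap. The sum of S100A10 and S100A11 was 71.6 to 75.9 CPM in the controls and 99.1 and 106 CPM with ascorbic acid, which do not. That follows by construction, because S100A10 and S100A11 were each higher in every treated library than in any control.

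Levels of different genes can be compared only per length. In controls, CPM per kilobase of annotated exon was highest for ANXA5 (102 ± 3.86, SD, n = 3), followed by S100A10 (36.5 ± 1.52), ANXA7 (33.3 ± 1.47), S100A11 (26.4 ± 0.400) and ANXA6 (24.4 ± 0.565). ANXA11 (10.6 ± 0.383), ANXA2 (8.81 ± 0.274), ANXA4 (1.48 ± 0.110), ANXA1 (1.27 ± 0.113) and ANXA3 (0.268 ± 0.0505) came next. The control ranges of neighbours in this order were apart except for S100A10 with ANXA7 and for ANXA4 with ANXA1. With ascorbic acid S100A11, at 55.6 ± 1.21 (SD, n = 2), stood second to ANXA5 at 101 ± 5.65 CPM per kilobase. The order depends on the length used, because all annotated exons of ANXA2 add up to 8824 bases and its principal transcript has 1676. Per kilobase of principal transcript, ANXA2 (46.4) was close to S100A10 (46.9) in controls, and ANXA6 (51.0) stood second. With ascorbic acid ANXA2 (68.2) then stood above S100A11 (63.6), so the second place of S100A11 holds per kilobase of annotated exon and not per principal transcript.

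Fold change and level were also set side by side, because low genes in these libraries had higher fold changes as a group. Across tested genes, the median on the log2 scale was 0.15 for the 2284 from 1 to 5 CPM, 0.05 in the 2810 from 5 to 20 CPM, -0.01 in the 3068 from 20 to 50 CPM, -0.04 in the 3794 from 50 to 200 CPM and -0.07 in the 913 above. Against the median of their own range, 8 of the 10 genes lay above, and ANXA7 and ANXA11 lay below. The 8 include ANXA5 and ANXA6, which did not pass. A median splits the genes of its range evenly, and these 10 were chosen with their fold changes known, so nothing is read from this count. A cyclic loess fit, which removes such a trend, left log2 fold changes of 0.92 for ANXA1, 0.92 for ANXA3 and 1.06 for S100A11.

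**Figure D4:**
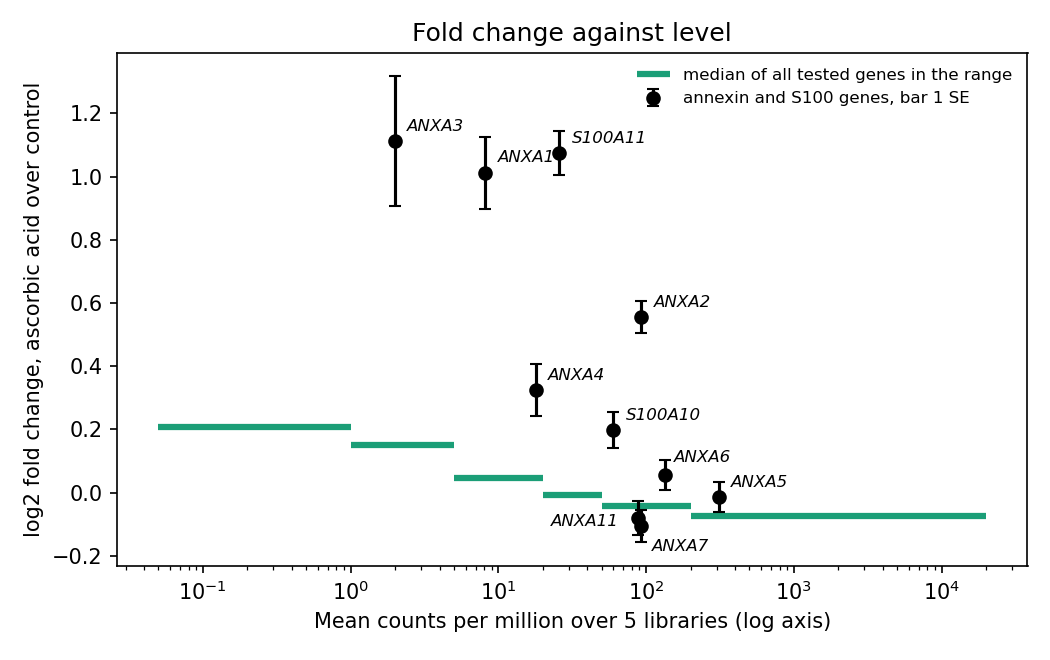
Log2 fold change of the 10 genes (points, bar 1 SE) against their mean CPM over the 5 libraries (log axis). Green lines give the median log2 fold change of all tested genes in 6 ranges of level, from 0.21 below 1 CPM to -0.07 above 200 CPM. ANXA2 has 0.56 in the range from 50 to 200 CPM, where the median is -0.04.

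Close copies of ANXA2 share its sequence. The processed pseudogenes ANXA2P1, ANXA2P2 and ANXA2P3 match an ANXA2 transcript at 93.6, 98.4 and 91.4% identity, and reads that match more than 1 copy make these counts uncertain. ANXA2P2 took 12 to 26 counts per control library and 32 and 23 per treated library. ANXA2 itself took 2596 to 4478 per control library and 5671 and 4775 with ascorbic acid. S100A11 has the annotated processed pseudogenes S100A11P1 and S100A11P2, which are not among the gene symbols of the count table.

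By position, S100A10 and S100A11 are neighbours on chromosome 1, while the annexins are spread over 6 chromosomes. The counts of neighbours stand beside shares of 8.53% higher and 5.76% lower over all tested genes, and were not tested against them. Within 500 kb of S100A11, 10 other genes were tested, of which S100A10 rose, TDRKH fell and 8 did not pass. The 1 gene tested within 500 kb of ANXA1 was the retinaldehyde dehydrogenase gene ALDH1A1, which rose. Around ANXA4, which rose, 3 of 16 tested neighbours fell and 13 did not pass. Around ANXA2, 1 of 4 rose and 1 fell, and around ANXA11, 1 of 9 rose and 1 fell. Around ANXA6, 1 of 12 rose and 11 did not pass, and around ANXA7, 1 of 25 fell and 24 did not pass. Around ANXA3, 0 of 3 tested neighbours passed in edgeR, DESeq2 or limma-voom, and 0 had an unadjusted p under 0.05. Around ANXA5, 0 of 7 passed in edgeR and 3 had an unadjusted p under 0.05. DESeq2 called 1 lower and limma-voom called 1 higher, so these were not the same gene.

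Most other family members were hardly present. Of 6 other annexins and annexin receptor genes 2 were tested, ANXA9 (-0.08 ± 0.19, SE, on the log2 scale) and ANXA2R (0.34 ± 0.40), and neither passed in edgeR, DESeq2 or limma-voom or had an unadjusted p under 0.05. ANXA8L1, ANXA10 and ANXA13 had no count in any library. Of 18 other S100 genes 3 were tested. S100A13, which takes part in non-classical protein secretion, rose by 0.25 ± 0.08 on the log2 scale from 19.6 to 23.3 CPM (edgeR adjusted p = 0.0265). That call ended without control replicate 2 (0.21, edgeR adjusted p = 0.119), without ascorbic acid replicate 1 (0.21, 0.172) and with cyclic loess (0.23, 0.0562). S100A4 (0.84 ± 0.30, edgeR adjusted p = 0.0607) and S100A1 (0.02 ± 0.30) did not pass. S100A6, an abundant S100 gene of fibroblasts and epithelia, had 1 count in 1 control library and 0 in the other 4. S100A16 was too low to test, with 2, 0 and 0 counts in controls 1 to 3 against 11 and 10 with ascorbic acid.

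Genes that act with annexins were taken as lists by function. Their counts stand beside shares of 8.53% higher and 5.76% lower over all tested genes. Among 21 tested membrane repair and ESCRT-III genes, 3 rose and 1 fell, 17 not passing, and the median log2 fold change was -0.02. No call of this list was left in a test against a 1.2-fold change. AHNAK, the large scaffold bound by ANXA2 with S100A10, rose by 0.40 ± 0.05 (edgeR adjusted p = 5.69e-06). The calpain gene CAPN1 rose by 0.41 ± 0.06 (1.9e-05), while CHMP2B, an ESCRT-III subunit, fell by 0.25 (SE 0.05, 0.00176), and EHD2, an ATPase of caveolae, was the third gene that rose (0.79 ± 0.20). Of 5 tested plasminogen system genes 1 rose and 4 did not pass, with a median of 0.08. The 1 that rose was PLAT, tissue plasminogen activator, from 45.6 to 70.2 CPM (0.62 ± 0.06 on the log2 scale, edgeR adjusted p = 9.78e-09). SERPINE2 (0.05 ± 0.06) and the urokinase receptor gene PLAUR (-0.07 ± 0.13) did not pass. PLG was too low to test, with 1 count in 1 control library and 0 in the other 4.

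In 3 further lists 0 genes passed in edgeR, and DESeq2 and limma-voom called 0 as well. Among 5 tested phospholipase A2, eicosanoid and formyl peptide receptor genes the median was 0.07 on the log2 scale, with PLA2G4A at 0.07 ± 0.07 and PLA2G6 at 0.035 ± 0.13, and 1 gene had an unadjusted p under 0.05. The ANXA1 receptor genes FPR1 and FPR3 had no count in any library, and FPR2 had 2 counts in 1 control. Among 4 tested S100A10 cargo and binding partners (median -0.13), HLTF had 0.02 ± 0.05 and DLC1 -0.11 ± 0.07, and 1 gene had an unadjusted p under 0.05. Among 13 other EF-hand genes (median -0.03), the calmodulin genes CALM3 and CALM2 had -0.01 ± 0.04 and -0.055 ± 0.045, and 1 gene in each direction had an unadjusted p under 0.05, the higher being the endoplasmic reticulum gene RCN1 (0.13 ± 0.05, edgeR adjusted p = 0.0583). In 7 of the 17 alternative fits, among them library totals, cyclic loess and the fit without control replicate 1, 1 EF-hand gene was called higher. For phosphatidylserine exposure, 1 of 10 tested genes rose and 1 fell, 8 not passing (median -0.05). The scramblase gene XKR8 rose by 0.49 ± 0.13 (edgeR adjusted p = 0.00894), and PLSCR1 fell by 0.22 (SE 0.07, 0.0297). The XKR8 call ended without ascorbic acid replicate 2 (0.44, edgeR adjusted p = 0.0789) and with cyclic loess (0.39, 0.0564). The PLSCR1 call ended with the replicate block (-0.20, edgeR adjusted p = 0.0685) and on leaving out any 1 of 4 libraries (-0.25 to -0.19, edgeR adjusted p = 0.0517 to 0.136).

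The cell type marker lists did not move alike, and their part in the fold changes of S100A11 and ANXA1 was not tested. Over all tested genes 8.53% were called higher and 5.76% lower. By level, 5.08% were called higher below 1 CPM, 14.5% from 1 to 5 CPM and 13.6% from 5 to 20 CPM. Of the 6 tested neural-lineage genes 4 rose (NEFM, NES, MAP2 and ENO2), with a summed level of 41.5 to 44.5 CPM in controls and 56.8 to 60.2 CPM with ascorbic acid, and 2 were called by DESeq2, by cyclic loess and without ascorbic acid replicate 1. Of the 5 tested proximal tubule genes SLC13A3 rose and LRP2 fell (0.731-fold, edgeR adjusted p = 4.98e-05), and the summed level was 33.7 to 36.2 CPM in controls and 29.2 to 29.6 CPM with ascorbic acid. The proximal tubule count of higher genes was 2 without control replicate 2 or 3. Of 11 fibroblast markers 5 were tested and 4 rose (COL1A1, COL3A1, ACTA2 and MMP2), and the summed level of the list was 20.1 to 21.9 CPM in controls and 36.8 to 40.6 CPM with ascorbic acid. FAP had no count, and COL1A2, DCN and THY1 had at most 2 counts in a library. Of 10 keratinocyte and epithelial markers 4 were tested and 3 rose (KRT17, EPCAM and SFN), with a summed level of 3 to 3.36 CPM in controls and 4.66 to 4.91 CPM with ascorbic acid, and KRT5 had no count. DESeq2 called 0 of these 3 epithelial genes, all with group means below 1 CPM, and did not call LCP1. Among 8 haematopoietic markers 4 were tested and LCP1 rose (sum 74.5 to 79.0 against 82.3 to 90.3 CPM), with CD3E and TYROBP at 0. Of 7 endothelial markers 2 were tested and 0 passed in edgeR, DESeq2 or limma-voom or at an unadjusted p of 0.05 (sum 6.57 to 7.94 against 8.27 to 8.60 CPM).

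The genes whose pattern over the 5 libraries was most like that of S100A11 and ANXA1 were named by the root mean square difference of log2 level relative to the control mean, among 10354 genes with at least 5 CPM. Nearest to S100A11 were INPP5D, an inositol phosphatase gene (0.0634), TRIM6, a ubiquitin ligase gene (0.0807), and COL5A2, a fibrillar collagen gene (0.0859). Nearest to ANXA1 were RBM47, an RNA-binding protein gene (0.0715), LAMC3, a laminin chain gene (0.118), and COL5A2 (0.13). These differences compare 5 libraries in 2 groups, so any gene of similar fold change comes near. TRIM6, COL5A2 and LAMC3 had control means of 3.67, 4.63 and 4.93 CPM, so they reached the mean of 5 CPM only through the treated libraries.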

How the data were processed

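RNA of 3 control and 2 ascorbic acid libraries was compared. The deposited table holds whole-number counts per gene symbol for the 5 libraries. The submitters' processing notes name hg38 and the tools Trimmomatic 0.39, STAR, featureCounts and DESeq2. Annotation, strand and multiple mapping are not stated, so overlapping genes and close paralogs are uncertain. Columns were assigned by name ("con" for control, "vc" for vitamin C). Totals were 57212071, 38229722 and 35106664 counts in controls 1 to 3 and 48015766 and 41739602 in treated 1 and 2.

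Genes were filtered with filterByExpr, scaled with TMM and tested with edgeR's two-sided quasi-likelihood test (version 4.0.16, R 4.3.3, robust glmQLFit, no covariates), with Benjamini-Hochberg adjustment over 15271 genes. The standard error is the fold change divided by the root of F. When counts of this comparison were simulated, with 15113 genes tested and 50 changed at each size, 58% of genes changed 1.2-fold and 100% of those changed 1.5-fold, 2-fold or 3-fold were recovered (genes of at least 5 CPM), and 5 of 184 calls were false. Libraries within a group differed beyond counting noise (chi-square per degree of freedom 3.90 to 7.23) and were kept apart. Positions and lengths are from GENCODE 29 (GRCh38), and promoter windows from RefSeq (GRCh38.p14), which matched 10 of the 10 genes.

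The genes, lists and motifs were chosen with earlier results of these data known. Named beside the 10 genes were, per list, the 3 called genes of smallest p (the 2 most expressed tested genes where none was called), and the 3 genes most like S100A11 and ANXA1. Those named outside this rule, after their values were seen, are EHD2, RCN1, S100A1, S100A4, S100A6, S100A16, PLAUR, SERPINE2, PLG, FPR1, FPR2, FPR3, the annexins without counts, the neighbouring genes and the markers. Alternatives were DESeq2 1.42.0, limma-voom and cyclic loess with limma 3.58.1, other scalings, filters and priors, halved counts, a test against a fold of 1.2, a replicate block and each library left out. The principal transcript length was added after the exon lengths were seen.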

Additional observations from a re-analysis of the deposited data

How the results depend on the processing

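Over 17 alternative fits the count of higher genes among the 10 stayed between 4 (test against a fold of 1.2) and 6, and that of lower genes at 0. ANXA1, ANXA2, ANXA3 and S100A11 were called in each fit that tested them; a filter of 5 CPM in 2 libraries removes ANXA3. The median log2 fold change of the 10 was 0.304 with library totals, 0.277 with upper-quartile factors and 0.229 to 0.284 with 1 library left out. With the 5 CPM filter, which leaves out ANXA3, the median of the remaining genes was 0.223. With the replicate number as a block the median was 0.274 and the S100A10 call ended (0.17), with 5 of the 10 called; same-numbered libraries did not deviate together (correlation 0.0267 and 0.00564), so the numbers are not shown to pair the libraries, and the block moved the calls over all genes from 1303 to 1076 higher and from 879 to 804 lower. The related lists had 6 higher and 2 lower genes. Against a fold of 1.2 these were 1 and 0, the lower count was 1 with library totals, with the 5 CPM filter and with the replicate block, and with 1 library left out it was 1 to 2.

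By length, 4 of the 10 genes kept their place in the control order with the longest transcript and 4 with the principal transcript. The ratio of S100A10 to ANXA2 per kilobase, 4.14 in controls and 3.23 with ascorbic acid, became 2.13 and 1.66 with the longest and 1.01 and 0.789 with the principal transcript. That of S100A11 to ANXA1, 20.9 and 22.0, became 11.6 and 12.2 with either. A change of length scales both groups alike, by construction. ANXA5 turned sign with library totals (0.028), upper-quartile factors (0.0017), cyclic loess (0.049), the 5 CPM filter (0.010) and on leaving out a library (-0.073 to 0.034). CALM3 turned with library totals (0.033), upper-quartile factors (0.0063), cyclic loess (0.061), the 5 CPM filter (0.015), the replicate block (0.0076) and libraries left out (-0.055 to 0.026), CALM2 (0.015) and PLA2G6 (-0.059) with cyclic loess, and ANXA9 (-0.20 to 0.13), PLA2G6 (-0.087 to 0.13) and HLTF (-0.095 to 0.11) with libraries left out. None of these 6 passed in any of these fits, and the cause of the turns was not tested. Library totals also moved the calls over all genes to 1712 higher and 389 lower. The lower calls were 510 with cyclic loess, 542 with the 5 CPM filter and 335 and 535 without control replicate 1 or 2. The higher calls were 845 without control replicate 1, and 790 and 837 without ascorbic acid replicate 1 or 2. Against a fold of 1.2 there were 275 higher and 11 lower. Depth limits the genes below about 1 CPM, where a few counts decide.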
